A study of Homo sapiens with 19 samples.

Results

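UNC93A and UNC93B1 are the 2 members of the UNC93 family of membrane proteins whose RNA levels are described here, out of 34825 gene symbols measured in HepG2 cells. UNC93A was chosen by its measured levels, since it had the largest fall with both siRNAs against INO80, and UNC93B1 was added as its relative. The INO80 values of UNC93A therefore chose it, and the differences of both genes with the INO80 siRNAs are given as a description with no test. The rule of the choice used no values of the experiment with siRNA against MCRS1 and with the inhibitor EPZ-6438, and there both genes were tested. Earlier results of these data were known when the genes were chosen.

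The family is named after unc-93 of C. elegans, which regulates a muscle potassium channel, and its proteins resemble transporters of the major facilitator type. UNC93B1 is the well studied member. It binds Toll-like receptors in the endoplasmic reticulum and escorts those that sense nucleic acids, among them TLR3, TLR7, TLR8 and TLR9, to endosomes, where proteases cut them into their active form. UNC93A has been studied far less, and it is known as a membrane protein made in liver and kidney.

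HepG2 is a human liver cancer cell line, and all libraries were made with a kit for stranded mRNA sequencing. INO80 is the ATPase of the INO80 chromatin remodeling complex and MCRS1 is one of its accessory subunits, while EPZ-6438 inhibits EZH2, the enzyme that methylates histone H3 at lysine 27. In the INO80 experiment the cells received 50 nM of a non-targeting control siRNA (NTG), of siINO80#1 or of siINO80#2, with 3 libraries each. In the drug experiment they received DMSO or 1 µM EPZ-6438 from 3 days before transfection, and then 50 nM of NTG or of siMCRS1, which gave 5 libraries in DMSO (2 NTG, 3 siMCRS1) and 5 in EPZ-6438 (3 NTG, 2 siMCRS1). Cells were harvested 72 h after transfection. INO80 was targeted with 2 siRNAs and MCRS1 with a single one, so no second siRNA checks the MCRS1 results. Whether the libraries of a group came from separate cultures is not stated, and the p-values measure only the spread between these libraries.

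Depth was 17093574 to 25369547 reads for INO80 libraries and 26038505 to 47397233 for drug libraries, and 3 reads, taken as the floor, were worth 2.30 to 4.30 normalized counts. INO80 itself fell to 48.1% of its NTG mean with siINO80#1 and to 36.4% with siINO80#2, and MCRS1 fell with its siRNA to 7.99% (DMSO) and to 7.93% (EPZ-6438). All 8 hepatocyte markers, such as ALB and APOB, were above the filter in both experiments, at a summed level of 26787 to 49479 RPM, the usual count of reads scaled to a common library total. Of the 7 monocyte, macrophage and dendritic markers, 5 were above the filter in both experiments, with LYZ the most abundant and CD68 at a mean of 1002 and 919 normalized counts in the INO80 and drug experiments. FCGR3A had no read in any library, and CSF1R had a mean of 2.37 and 3.37. Among 5 B cell and plasmacytoid dendritic markers only CD79A reached the filter, and MS4A1 had 1 read in all INO80 libraries and 0 in all drug libraries.

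UNC93A lies on chromosome 6 at 167269032 to 167316014 and UNC93B1 on chromosome 11 at 67991100 to 68004097 (GRCh38). A promoter window of 250 bases before to 50 bases after an annotated start was at hand for UNC93A in the RefSeq table, and it is shown because this gene carried the largest fall. It covers chr6:167291065-167291364 on the plus strand (GRCh38.p14), and its start site is 22.3 kb from the lowest coordinate of the gene, so it belongs to a start inside the annotated span. Capitals mark GTTAAT on the minus strand, a part of the site of the liver transcription factor HNF1.

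UNC93A promoter: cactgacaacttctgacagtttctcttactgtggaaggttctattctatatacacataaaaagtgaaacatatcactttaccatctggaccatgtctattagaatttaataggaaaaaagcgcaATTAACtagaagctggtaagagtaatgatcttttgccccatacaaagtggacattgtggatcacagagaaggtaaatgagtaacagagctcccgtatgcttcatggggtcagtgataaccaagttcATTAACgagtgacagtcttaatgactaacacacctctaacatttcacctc

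The window had 38.0% G and C bases and 3 CpG dinucleotides, against medians of 58.7% and 14 over 35116 windows of the same length from 27305 genes. Of those windows, 8.10% had a lower GC content and 18.2% had fewer CpG. GTTAAT, searched on both strands, occurred 2 times in the UNC93A window and at least once in 6.88% of all windows. The second match begins at the start site itself. TATAAA, the TATA box, CCATNTT, the core of the site of YY1, and AAAGTCC, a part of the site of HNF4A, were not found in these letters and occurred in 11.5%, 15.6% and 3.71% of all windows. The 4 motifs were chosen after the expression values were known, and a match is a description of the letters only.

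In control cells of the INO80 experiment UNC93A was a well expressed gene and UNC93B1 a weakly expressed one. UNC93A stood at 1151, 812 and 1093 normalized counts in the NTG libraries A, B and C, a mean of 1019 ± 181 (SD, n = 3), which is above 71.0% of the genes tested there. UNC93B1 stood at 133, 127 and 137, a mean of 132 ± 5.01 (SD, n = 3), above 28.2% of those genes. Per kb of the longest protein-coding transcript (2111 and 2293 bases), this was 25.4 ± 4.50 RPM for UNC93A and 3.04 ± 0.128 for UNC93B1 (SD, n = 3). The spread between the NTG libraries was 17.8% of the mean for UNC93A and 3.78% for UNC93B1.

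With the INO80 siRNAs UNC93A was nearly lost. It stood at 26.2, 22.8 and 21.0 normalized counts in the libraries A, B and C of siINO80#1, a mean of 23.3 ± 2.66 (SD, n = 3). In siINO80#2 it stood at 15.7, 47.5 and 11.3, a mean of 24.8 ± 19.7 (SD, n = 3). All 6 siRNA libraries lay far below the 3 NTG libraries and above the floor, with 12 to 62 reads each. Library B of siINO80#2 stood apart from the other two at this low level, and the spread was 79.4% of the mean. The levels were 2.29% and 2.44% of the NTG mean. The difference in mean log2(normalized count + 1), the scale of all log2 differences below, was -5.38 (SE 0.40) with siINO80#1 and -5.55 (SE 0.40) with siINO80#2. The order of the 2 siRNA groups was within their spread. In bulk RNA, fewer cells with the transcript and less RNA per cell cannot be told apart.

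UNC93B1 differed far less in the same libraries. It stood at 91.8, 120.0 and 112 normalized counts in libraries A, B and C of siINO80#1, a mean of 108 ± 14.5 (SD, n = 3). In siINO80#2 it stood at 94.2, 122 and 116, a mean of 111 ± 14.6 (SD, n = 3). All 6 values lay below the lowest NTG library, at 127, but those of library B lay close to it. The means were 81.5% and 83.6% of NTG, with log2 differences of -0.30 (SE 0.15) and -0.26 (SE 0.15). Of all 14034 genes tested, 29.5% had every siINO80#1 library below every NTG library, and 31.4% had this with siINO80#2, so the lack of overlap is common in these data. Both siRNAs were compared with the same NTG libraries.

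**Figure D1:**
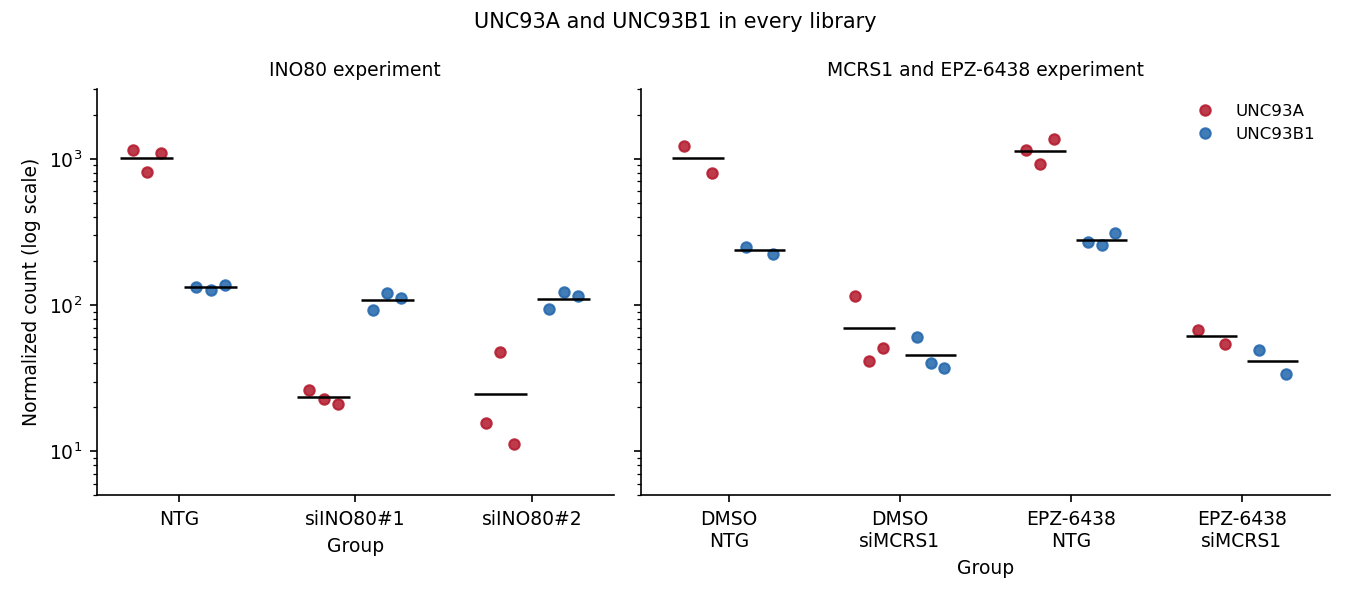
Normalized counts (log scale) of UNC93A (red) and UNC93B1 (blue) in every library, by group, in the INO80 experiment (left) and the drug experiment (right); each point is a library and each line a group mean. UNC93A falls from 812 or more in all NTG libraries of the INO80 experiment to 47.5 or less, while UNC93B1 stays at 91.8 or more there, and both genes are low in the siMCRS1 libraries.

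The order that chose UNC93A ran over 2218 genes with an adjusted p under 0.05 for both INO80 siRNAs, an average of 50 normalized counts or more and no overlap with NTG, by the smaller of the 2 falls. Its first place is therefore the choice itself and not a result. The next 3 genes in this order were metabolic genes of the liver. GSTA2, a glutathione S-transferase that has close copies with which it may share reads, went from a mean of 305 to 14.3 and 14.8 normalized counts (log2 differences -4.37 and -4.36). PCK1, the rate-limiting enzyme of gluconeogenesis, differed by -3.91 and -3.70, and BHMT, which remethylates homocysteine with betaine, by -3.67 and -4.11. The distance from UNC93A to the next gene was thus about 1 unit on the log2 scale.

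The drug experiment asked how loss of MCRS1 acts with and without EZH2 inhibition. UNC93A fell with siMCRS1 in both treatments, and UNC93B1 fell too. In DMSO, UNC93A stood at 1228 and 797 normalized counts in the NTG libraries 1 and 3 (mean 1013 ± 305, SD, n = 2). With siMCRS1 it stood at 116, 50.7 and 41.5 in libraries 1, 2 and 3 (mean 69.3 ± 40.5, SD, n = 3). Every siMCRS1 library was below both NTG libraries, and library 1 of siMCRS1 was the highest of its group. The level was 6.84% of control, a 14.6-fold lower mean, and the log2 difference was -3.96 (SE 0.37, adjusted p = 3.3e-05 by limma, 95% interval -4.78 to -3.14). It had rank 7 from the lowest of 14312 genes tested.

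UNC93A fell in EPZ-6438 as well. Its NTG libraries 1, 2 and 3 held 1145, 1355 and 914 normalized counts (mean 1138 ± 221, SD, n = 3). The siMCRS1 libraries A and B held 68.0 and 54.1 (mean 61.1 ± 9.80, SD, n = 2). The groups did not overlap, the mean was 18.6-fold lower, and the log2 difference was -4.19 (SE 0.37, adjusted p = 1.4e-05 by limma, 95% interval -5.01 to -3.37), the value of rank 15 from the lowest of 14312 genes.

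UNC93B1 also fell in both treatments, and whether its response differs between MCRS1 and INO80 siRNAs was not tested, since the experiments were normalized separately. In DMSO it stood at 249.9 and 223 normalized counts in the NTG libraries 1 and 3 (mean 237 ± 18.8, SD, n = 2). With siMCRS1 it stood at 60.1, 37.4 and 40.1 in libraries 1, 2 and 3 (mean 45.9 ± 12.4, SD, n = 3). The mean was 5.16-fold lower and the log2 difference was -2.37 (SE 0.25, adjusted p = 5.5e-05 by limma, 95% interval -2.92 to -1.82), rank 194 from the lowest.

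In EPZ-6438, UNC93B1 stood at 270.4, 309.7 and 257 in NTG libraries 1, 2 and 3 (mean 279 ± 27.6, SD, n = 3). With siMCRS1 it stood at 49.6 and 33.7 in libraries A and B (mean 41.7 ± 11.2, SD, n = 2). No library of one group overlapped the other. The mean was 6.69-fold lower and the log2 difference was -2.73 (SE 0.25, adjusted p = 1.6e-05 by limma, 95% interval -3.28 to -2.19), rank 191 from the lowest.

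Falls were common with siMCRS1, so the calls of the 2 genes stand against a high background. Of the 14312 genes, 24.6% were called lower and 23.1% higher in DMSO, and 26.9% were called lower and 26.8% higher in EPZ-6438. Every siMCRS1 library was below every NTG library for 33.5% of genes in DMSO and 34.8% in EPZ-6438. When each library was scaled to the same total, the median of all genes shifted by -0.23 in both treatments, and the differences relative to that median were -3.96 and -4.19 for UNC93A and -2.37 and -2.74 for UNC93B1. With the INO80 siRNAs the shift was -0.08 and -0.11, and the relative differences were -5.38 and -5.54 for UNC93A and -0.30 and -0.26 for UNC93B1. Such scaling multiplies all genes of a library by the same factor. The relative differences therefore had to stay nearly unchanged and are no check of the falls. With siMCRS1 the differences before this subtraction were -4.20 and -4.42 for UNC93A and -2.60 and -2.97 for UNC93B1. INO80 was itself slightly lower with siMCRS1, at -0.27 (SE 0.10, adjusted p = 0.039 by limma) in DMSO and -0.35 (SE 0.10, adjusted p = 0.0097) in EPZ-6438. Its part in the falls was not tested.

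EPZ-6438 alone moved neither gene beyond the spread. In NTG cells the log2 difference from DMSO was 0.18 for UNC93A (SE 0.37, adjusted p = 0.85 by limma, 95% interval -0.64 to 1.01). For UNC93B1 it was 0.23 (SE 0.25, adjusted p = 0.68 by limma, 95% interval -0.31 to 0.78), and its 3 EPZ-6438 libraries were above both DMSO libraries, as for 16.4% of all genes. In siMCRS1 cells the differences were -0.04 for UNC93A (SE 0.37, adjusted p = 0.99 by limma, 95% interval -0.87 to 0.78) and -0.13 for UNC93B1 (SE 0.25, adjusted p = 0.94 by limma, 95% interval -0.68 to 0.42). EPZ-6438 changed 0.384% of all genes in NTG cells and 0.0908% in siMCRS1 cells. The interval for UNC93A in NTG cells leaves room for a rise of up to 1.01 on the log2 scale.

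The effect of siMCRS1 was not shown to differ between treatments. The interaction was -0.23 for UNC93A (SE 0.53, adjusted p = 1.00 by limma, 95% interval -1.39 to 0.94) and -0.36 for UNC93B1 (SE 0.35, adjusted p = 1.00 by limma, 95% interval -1.14 to 0.41). Of all genes, 0% passed this test by limma. An unadjusted p under 0.05 was found for 336 genes, and 0 genes passed by edgeR and 5 by DESeq2.

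**Figure D2:**
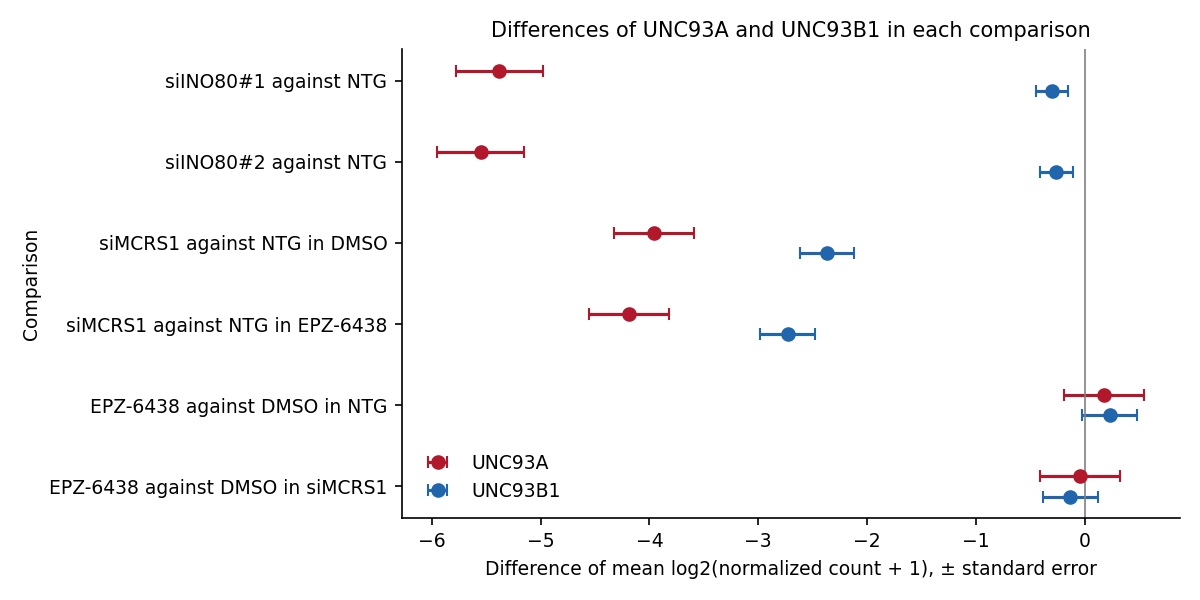
Differences of mean log2(normalized count + 1) with their standard errors for UNC93A (red) and UNC93B1 (blue) in 6 comparisons; negative values are lower in the group named first. UNC93A is near -5.4 with the INO80 siRNAs and near -4 with siMCRS1, UNC93B1 is near -0.3 and near -2.5, and both are near 0 with EPZ-6438. The INO80 values are a description.

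In order of level, UNC93A was highest in NTG cells given EPZ-6438, then in NTG cells given DMSO, in siMCRS1 cells given DMSO and in siMCRS1 cells given EPZ-6438, and UNC93B1 had the same order. The first 2 groups were not shown to differ by the test above, nor were the last 2. Within a group of the drug experiment, libraries with more UNC93A tended to hold more UNC93B1. The deviations from the group mean had the same sign in 9 of 10 libraries. In the INO80 experiment the count was 4 of 9, with NTG library A, where UNC93B1 deviated by 0.00 after rounding, counted as unlike. Deviations within a group cancel out, and in groups of 2 libraries they mirror each other, so the free comparisons are fewer than the libraries. Across libraries Pearson's r between the 2 genes was 0.99 over the 10 drug libraries and 0.72 over the 9 INO80 libraries. Both include the group differences and shared size factors and are descriptions.

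The 2 genes differed in how much they fell. Per kb of transcript, UNC93A exceeded UNC93B1 by 9.42, 6.93 and 8.65 times in NTG libraries A, B and C of the INO80 experiment. With siINO80#1 the ratio was 0.310, 0.206 and 0.204, and with siINO80#2 it was 0.181, 0.424 and 0.106, so the order of the 2 genes was turned in all 6 libraries. In the drug experiment the ratio was 5.34 and 3.88 in DMSO with NTG and 2.09, 1.47 and 1.13 in DMSO with siMCRS1. It was 4.60, 4.75 and 3.87 in EPZ-6438 with NTG and 1.49 and 1.74 in EPZ-6438 with siMCRS1. UNC93A thus stayed the higher of the 2 genes in every siMCRS1 library, by a smaller factor than in any NTG library. The mean log2 ratio fell with siMCRS1, with a difference of -1.52, or -1.59 among DMSO libraries and -1.45 among EPZ-6438 libraries. In an exact two-sided permutation test within treatments this gave p = 0.01, the smallest value that the 100 assignments allow.

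**Figure D3:**
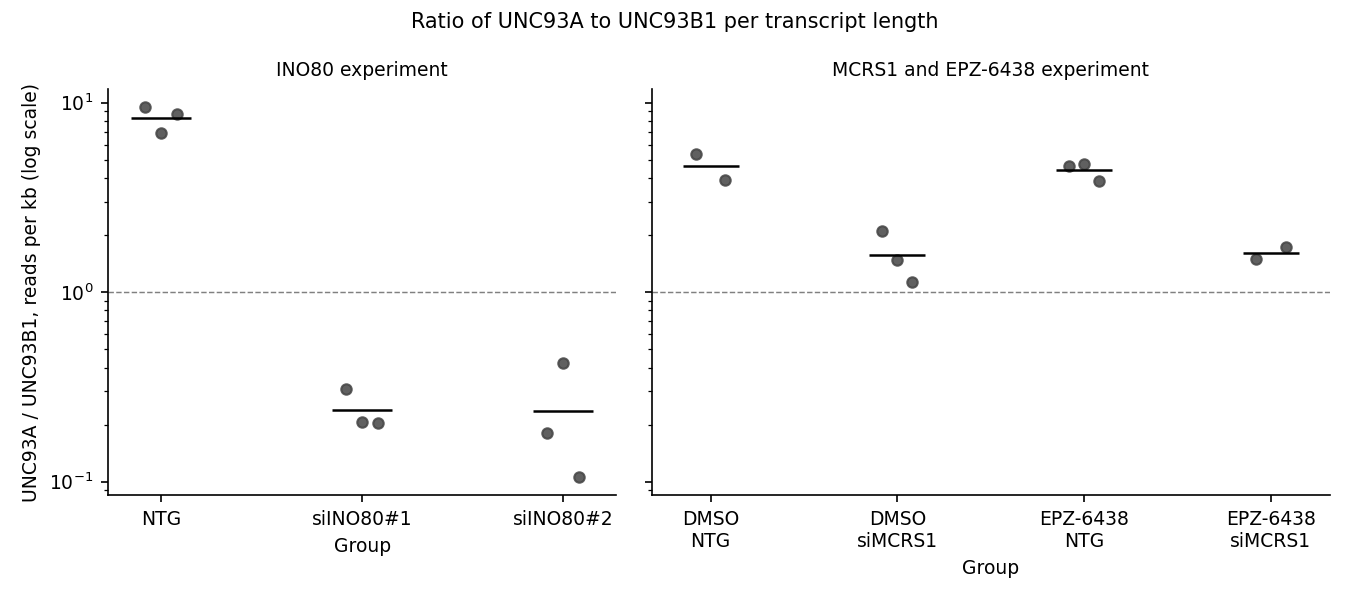
Ratio of UNC93A to UNC93B1 in reads per kb of the longest protein-coding transcript (log scale), one point per library, lines for group means, and a dashed line where both genes are equal. The ratio lies between 0.106 and 0.424 with the INO80 siRNAs and between 1.13 and 2.09 with siMCRS1, against 3.87 to 9.42 in all NTG libraries.

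UNC93B1 has near-identical pseudogene copies, and reads of the gene could be split with them. The 7 rows named UNC93B2 to UNC93B8 held 3 reads in all in the INO80 experiment and 6 in the drug experiment, against 1078 and 1642 reads of UNC93B1. How the counting treated reads that match several copies is not stated, so the level of UNC93B1 is uncertain in that respect. UNC93B1 is known to act in immune cells, and the RNA of genes used as markers of these cells was summed in each library. All libraries are of the HepG2 line, so the sums describe these genes in cultured cells and do not count immune cells. The summed level of the 7 monocyte, macrophage and dendritic markers was 1638 to 2076 RPM in DMSO with NTG, 1014 to 1563 in DMSO with siMCRS1, 1509 to 2021 in EPZ-6438 with NTG and 1131 to 1523 in EPZ-6438 with siMCRS1. Without LYZ these ranges were 31.9 to 32.1, 20.1 to 21.8, 29.9 to 48.8 and 16.7 to 19.0. The 5 B cell and plasmacytoid dendritic markers summed to 1.83 to 2.73 and 1.37 to 2.44 in DMSO, and to 1.30 to 2.78 and 1.18 to 1.39 in EPZ-6438, in the same order of NTG and siMCRS1. The monocyte sums did not overlap between NTG and siMCRS1 in DMSO and overlapped in EPZ-6438. Those without LYZ overlapped in neither treatment. The B cell sums overlapped in both, but without CD79A they overlapped in neither. They were then 0.257 to 0.357 with NTG and 0.145 to 0.219 with siMCRS1 in DMSO. In EPZ-6438 they were 0.409 to 0.844 and 0.0923 to 0.256, all very low levels. Any link of these sums to the fall of UNC93B1 was not tested. In the INO80 experiment the monocyte sum was 1953 to 2179 with NTG, 2010.1 to 2234 with siINO80#1 and 2230.3 to 2897 with siINO80#2. Without LYZ this sum was not higher with the siRNAs, at 46.9 to 58.9 with siINO80#1 and 38.6 to 67.1 with siINO80#2. Both ranges overlapped that of NTG, whose lowest value was 58.6, and neither reached the highest NTG value. The 4 kidney proximal tubule markers summed to at most 0.991 RPM in any library. The 3 fibroblast markers summed to 12.4 to 23.7 in the INO80 experiment, highest with siINO80#1, and to 6.03 to 11.0 with NTG against 13.7 to 23.7 with siMCRS1 in the drug experiment. Without PDGFRB the range with siINO80#1, 6.61 to 10.2, overlapped that with NTG, 4.84 to 7.14. Without COL1A1 the drug ranges overlapped, at 2.56 to 3.26 (NTG) and 2.96 to 4.99 (siMCRS1) in DMSO. In EPZ-6438 they were 4.19 to 5.99 and 4.32 to 5.65.

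The genes whose pattern across libraries was most like that of UNC93A were found by correlation. Over the 9 INO80 libraries and 11582 genes with a mean of at least 50, the 5 with the highest Pearson r were ACAD11 (0.992), DEPDC1 (0.991), ODAM (0.990), BPHL (0.990) and SPATA18 (0.989). Over the 10 drug libraries and 11897 genes they were PIGO (0.998), NGEF (0.996), MLYCD (0.996), RAD9A (0.996) and MVB12A (0.995). By the lower of the 2 values the leading genes were ALDH5A1, which breaks down the GABA product succinic semialdehyde (0.985 and 0.992), FBF1, NGEF, AKR1D1, an enzyme of bile acid synthesis, and C11orf71. Among these genes AKR1D1 had the lowest values with the INO80 siRNAs. It differed by -2.93 and -3.58, and ALDH5A1 differed by -0.82 with each.

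UNC93B1 had closer matches in the drug experiment than in the INO80 experiment. Over the INO80 libraries they were CST3 (0.929), PRELID1 (0.909), TCEAL1 (0.899), MBLAC2 (0.894) and TRAPPC5 (0.892). Over the drug libraries they were AP1M2, an adaptor subunit of vesicle traffic (0.999), SFXN3 (0.998), RETSAT (0.998), KAZALD1 (0.998) and RGP1 (0.997). In both, TCEAL1 led (0.899 and 0.976), followed by MBLAC2, ZNF444, DUSP28 and PIGQ. Values were log2(normalized count + 1), the libraries fall into groups that differ, and each r is a description of likeness only.

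Of the 10 nearest genes with a row around UNC93A, 4 were tested, and 2 were called lower with each INO80 siRNA. Of all 34825 symbols, 14034 were tested in the INO80 experiment and 14312 in the drug experiment, a share close to that of these neighbours. CCR6, a chemokine receptor whose lowest coordinate is 157 kb away, had NTG values of 733, 573 and 681 normalized counts, siINO80#1 values of 341, 265 and 333 and siINO80#2 values of 199.7, 237 and 167. It fell, with log2 differences of -1.08 and -1.72 (adjusted p = 2.6e-04 and 6.2e-06 by limma). CEP43, a centrosomal protein listed under its older symbol FGFR1OP, fell, at -0.65 and -0.77 (adjusted p = 5.1e-05 and 7.6e-06). RNASET2 and AFDN, the other tested genes, did not pass with either siRNA. With siMCRS1, CCR6 fell, at -0.76 in DMSO and -0.60 in EPZ-6438 (adjusted p = 0.0044 and 0.013), while AFDN was at 0.48 and 0.45 (adjusted p = 0.023 and 0.028). RNASET2 was at 0.56 in EPZ-6438 (adjusted p = 0.043) and at 0.39 in DMSO (adjusted p = 0.15). With equal totals per library the calls of AFDN and RNASET2 were lost (0.25, 0.21 and 0.33, adjusted p = 0.23, 0.29 and 0.20). The nearest gene on each side of UNC93A, TCP10L2 and TTLL2, had means of 1.86 and 3.50 normalized counts in the INO80 experiment and could not be tested. Of all genes, 20.8% were called lower and 20.7% higher with siINO80#1, and 28.4% and 26.6% with siINO80#2.

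Around UNC93B1, 6 of the 10 nearest genes were tested. ALDH3B1, an aldehyde dehydrogenase whose lowest coordinate lies 4.45 kb from the highest coordinate of UNC93B1, fell in all 4 siRNA comparisons. It stood at 172, 162 and 178 normalized counts with NTG, 44.1, 54.5 and 72.6 with siINO80#1 and 39.3, 36.8 and 33.1 with siINO80#2. The log2 differences were -1.59 and -2.20 (adjusted p = 8.5e-05 and 5.0e-06 by limma). In DMSO it went from 173 and 210.0 to 21.1, 31.9 and 25.8, and in EPZ-6438 from 236, 389 and 337 to 32.8 and 21.3. These were log2 differences of -2.83 and -3.52 (adjusted p = 4.6e-05 and 1.0e-05 by limma), so ALDH3B1 was lower beside UNC93B1 with siMCRS1 and was also lower with the INO80 siRNAs, where UNC93B1 hardly differed.

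The other neighbours of UNC93B1 moved less. NDUFS8, a subunit of respiratory complex I, fell in all 4 comparisons, at log2 differences of -0.80 to -0.33. TCIRG1, a subunit of the proton pump of lysosomes, rose by 0.61 with siINO80#1 (adjusted p = 0.0031) and fell with siMCRS1, at -0.69 and -1.05 (adjusted p = 0.035 and 0.0035), where quantile normalization ended the call in DMSO (-0.43, adjusted p = 0.11). KMT5B, which methylates histone H4, rose by 0.41, 0.59, 0.66 and 0.79 in the 4 comparisons. CHKA, a choline kinase that overlaps TCIRG1 at its end, fell by 0.48 with siINO80#2 (adjusted p = 0.014) and was at 0.39 with siMCRS1 in EPZ-6438 (adjusted p = 0.013), a call lost with equal totals (0.15, adjusted p = 0.26). The pseudogene FAM86C2P passed in none of the 4. No source gives the strand setting of the counting. How reads from a stretch shared by overlapping genes were assigned is thus not known.

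**Figure D4:**
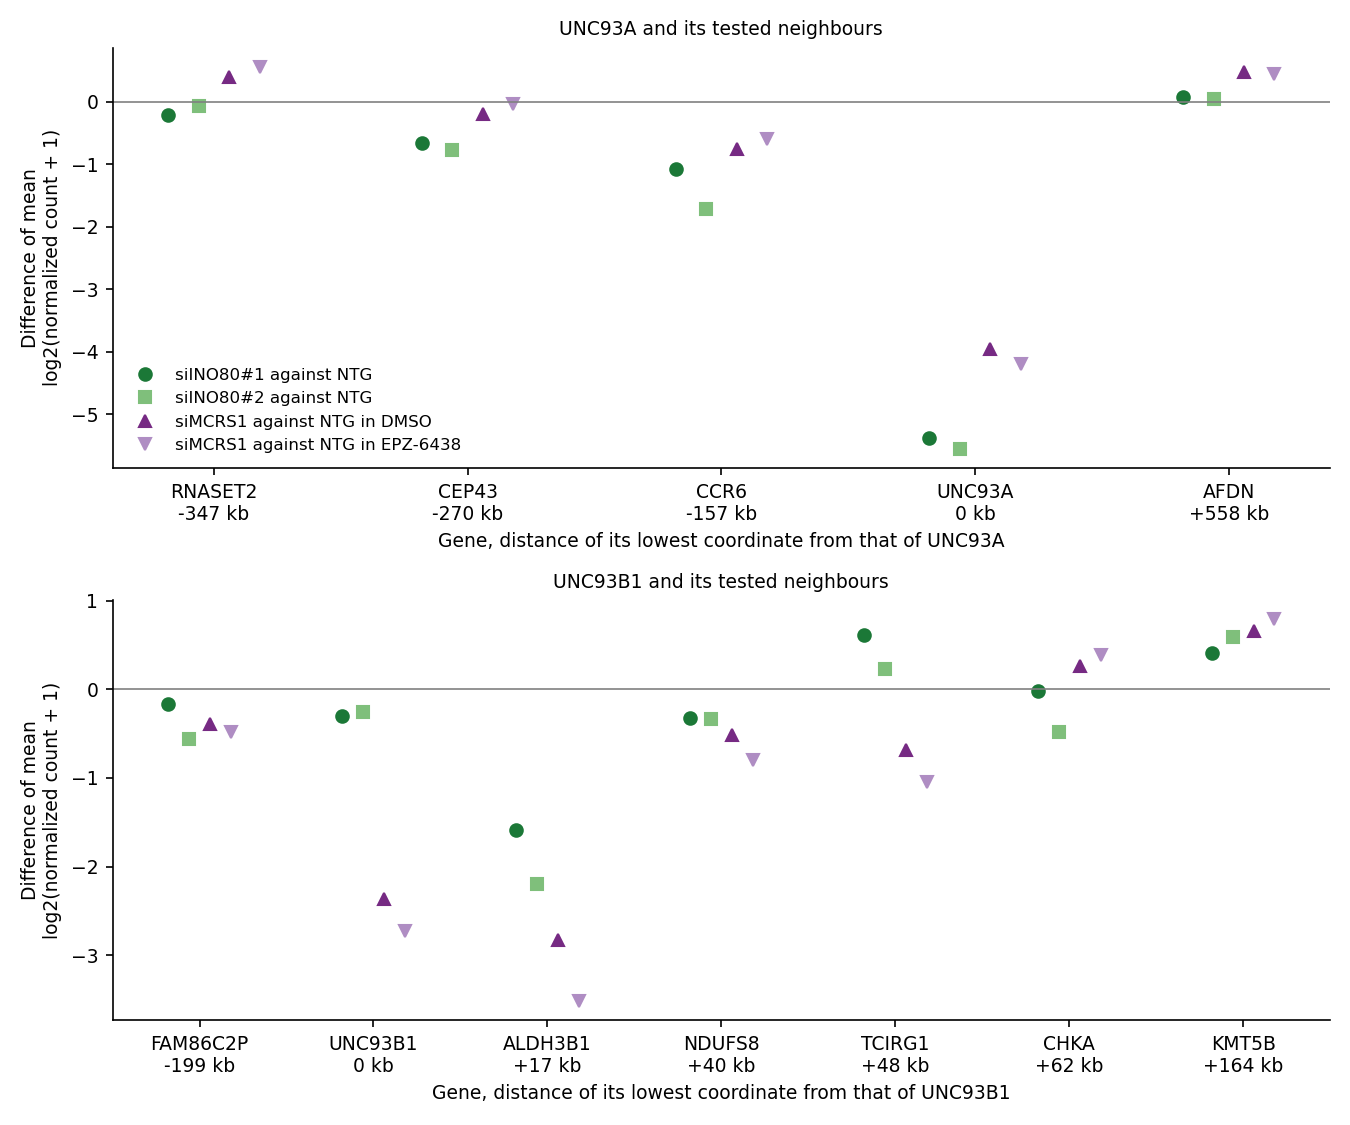
Differences of mean log2(normalized count + 1) for UNC93A (top), UNC93B1 (bottom) and their tested neighbours in the 4 siRNA comparisons, ordered by position; the labels give the distance in kb between lowest coordinates. UNC93A is far below its tested neighbours, which with the INO80 siRNAs follows from its choice. ALDH3B1, with a lowest coordinate 17.4 kb from that of UNC93B1, is low in all 4 comparisons. The INO80 values of UNC93A and UNC93B1 are a description.

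Related transporters moved in both directions. Counts in the lists that follow are to be read against the shares of all genes called higher and lower, which were 20.7% and 20.8% with siINO80#1, 26.6% and 28.4% with siINO80#2, 23.1% and 24.6% with siMCRS1 in DMSO, and 26.8% and 26.9% in EPZ-6438. Of 22 related genes with a row, 20 were tested in the INO80 experiment; 4 rose and 2 fell with siINO80#1, and 4 rose and 5 fell with siINO80#2. Their medians were 0.04 and -0.07, against 0.00 over all genes. SV2A, a synaptic vesicle protein, rose by 1.75 and 2.01 (adjusted p = 1.0e-05 and 1.9e-06 by limma), and MFSD6 rose by 1.08 and 1.78 (adjusted p = 0.005 and 1.2e-04). FLVCR1, a transporter of choline and heme, fell, at -0.30 and -0.94 (adjusted p = 0.047 and 4.0e-05). With siMCRS1, 19 were tested; 3 rose and 6 fell in DMSO (median -0.12), and 4 rose and 7 fell in EPZ-6438 (median -0.04). MFSD13A fell in all 4 comparisons, at -0.61 and -0.63 and then at -1.65 and -1.69, and MFSD14A rose in all 4, by 0.75, 0.44, 1.11 and 1.24. SPNS1, a lysosomal lipid transporter, fell with siMCRS1, at -0.78 and -1.13 (adjusted p = 5.1e-04 and 3.9e-05) and MFSD3 fell, at -0.95 and -1.75 (adjusted p = 0.015 and 3.8e-04). Quantile normalization ended the call of MFSD3 in DMSO (-0.62, adjusted p = 0.075). With equal totals per library the list medians were -0.04 and -0.18 with the INO80 siRNAs and -0.36 and -0.28 with siMCRS1, where 2 genes rose and 10 fell in each treatment.

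Of the receptors that UNC93B1 carries, TLR3 was the one above a few reads. TLR5, TLR7, TLR8 and TLR9 had group means of at most 5.29 normalized counts, and none of the 5 client receptors passed the filter in the INO80 experiment. TLR3, the sensor of double-stranded RNA, had 3 to 11 reads in each INO80 library and was the single one above the filter in the drug experiment. It stood at 5.74 and 14.3 normalized counts in DMSO with NTG and at 3.34, 2.20 and 2.86 with siMCRS1, which are 2 or 3 reads a library and at the floor. In EPZ-6438 with NTG it stood at 60.3, 36.2 and 76.7, and with siMCRS1 at 4.80 and 3.55. TLR3 was thus highest in the EPZ-6438 NTG libraries, and it passed the filter only through them, so its differences are a description with no test. They were -3.45 in EPZ-6438 (SE 0.49) and -1.43 in DMSO (SE 0.49) with siMCRS1, sizes that depend on the pseudocount at so few reads. With EPZ-6438 in NTG cells the difference was 2.47 (SE 0.49).

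The surface receptors varied in level. Of 5, 2 were tested in the INO80 experiment and 4 in the drug experiment. TLR6 fell by 1.31 with siINO80#1 (adjusted p = 0.0016) and was at -0.23 with siINO80#2 (adjusted p = 0.45). TLR4, the receptor of lipopolysaccharide, rose by 1.12 with siINO80#2 (adjusted p = 0.0033) and was at -0.39 with siINO80#1 (adjusted p = 0.25). TLR1 and TLR2 passed the filter in the drug experiment only through the NTG groups, and their differences with siMCRS1 are given with no test. TLR1 went from a mean of 16.7 to 4.23 normalized counts in DMSO and from 29.2 to 8.39 in EPZ-6438 (log2 differences -1.59 and -1.63). Its lowest DMSO NTG library, at 6.70, was within the siMCRS1 range of 2.23 to 7.16. TLR2 went from 15.3 to 5.23 and from 23.5 to 8.44 (log2 differences -1.33 and -1.37), with no overlap of groups. TLR4 and TLR6 did not pass the test with siMCRS1 in either treatment.

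Genes that fold, move and cut Toll-like receptors ranged from CTSK, at group means of 7.65 to 22.6 normalized counts, to HSP90B1, at 23631 to 54102. All 13 were tested; 3 rose and 1 fell with each INO80 siRNA (medians 0.04 and 0.07), 4 rose and 1 fell with siMCRS1 in DMSO (median 0.30), and 8 rose and 1 fell in EPZ-6438 (median 0.33). Except with siMCRS1 in EPZ-6438, the number that rose was close to what the share of all genes gives. CTSB, cathepsin B, rose by 0.35 and 0.43 with the INO80 siRNAs (adjusted p = 0.012 and 0.0028) and by 0.69 and 0.48 with siMCRS1 (adjusted p = 0.0011 and 0.0067). With equal totals its calls were lost with siINO80#1 (0.27, adjusted p = 0.07) and with siMCRS1 in EPZ-6438 (0.25, adjusted p = 0.08), where quantile normalization gave 0.03. HSP90B1, the chaperone of Toll-like receptors in the endoplasmic reticulum, rose by 0.38 and 0.51 with siMCRS1 (adjusted p = 0.011 and 0.0018), and SDCBP, syntenin, by 0.56 and 0.71 (adjusted p = 0.0078 and 0.0016). In DMSO both calls were lost with equal totals (0.14 and 0.32, adjusted p = 0.22 and 0.066) and with quantile normalization. CTSS, cathepsin S, fell, at -0.95 and -1.74 (adjusted p = 0.022 and 6.5e-04). With equal totals per library the medians with the INO80 siRNAs were both -0.04, and the counts with siMCRS1 became 1 higher and 2 lower in DMSO and 2 and 2 in EPZ-6438, so the number of risen genes depends on the scaling.

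Signalling genes downstream of the receptors, listed together with STING1, which is not itself downstream of them, moved in both directions. Of 21 with a row, 20 were tested; 5 rose and 2 fell with siINO80#1 (median 0.08), 8 rose and 3 fell with siINO80#2 (median 0.21), 4 rose and 6 fell with siMCRS1 in DMSO (median 0.02), and 4 rose and 4 fell in EPZ-6438 (median 0.02). STING1, a sensor adaptor of cyclic dinucleotides, rose by 0.94 and 1.73 with the INO80 siRNAs (adjusted p = 0.0013 and 1.2e-05), and TICAM1, the adaptor of TLR3, rose by 0.65 and 1.07 (adjusted p = 0.020 and 7.7e-04). IRF5, a transcription factor, fell, at -1.17 and -0.89 (adjusted p = 0.0053 and 0.016). IRF5 is also among the 6 counted as fallen with siMCRS1 in DMSO, but in the drug experiment it passed the filter only through its NTG groups. Its means there were 22.5 (DMSO) and 18.3 (EPZ-6438) with NTG, against 3.81 and 7.15 with siMCRS1. IRAK1, a kinase of the MYD88 pathway, fell with siMCRS1, at -0.67 and -0.85 (adjusted p = 0.0016 and 2.8e-04) and IKBKE, an inducible kinase of the same pathways, fell, at -1.06 and -1.15 (adjusted p = 0.0051 and 0.0025). With equal totals the medians with siMCRS1 were -0.21 and -0.22, with 1 gene higher and 9 and 8 lower.

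Of 13 output genes, 6 were tested, and IL6, IFNB1, IFNL1 and CCL2 were at 0 in every group. NFKBIA, the inhibitor of NF-kB that NF-kB itself induces, fell in all 4 comparisons, at -0.67, -0.86, -0.78 and -1.02 (adjusted p = 8.7e-04, 9.7e-05, 9.4e-04 and 1.4e-04 by limma). CXCL8, the chemokine interleukin 8, rose by 1.41 and 2.03 with siMCRS1 (adjusted p = 0.0052 and 4.7e-04), while IFIT1, an interferon-induced gene, fell, at -1.34 and -1.68 (adjusted p = 0.011 and 0.0026). In all, 1 gene rose and 1 fell with siINO80#1 (median 0.05), and 1 rose and 2 fell in each of the other 3 siRNA comparisons (medians 0.07, -0.12 and -0.43). The medians with the INO80 siRNAs were both -0.03 with equal totals.

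Over all lists without UNC93A and UNC93B1, 13 of 61 genes tested rose and 7 fell with siINO80#1, and 17 rose and 11 fell with siINO80#2. With siMCRS1, 12 of 63 rose and 18 fell in DMSO, and 17 rose and 17 fell in EPZ-6438. The siMCRS1 counts include TLR1, TLR2, TLR3 and IRF5, which passed the filter in the drug experiment only through NTG groups. The shares that rose lie near those of all genes given above, while fewer than that share fell with the INO80 siRNAs. The list medians of 0.05, 0.08, 0.00 and -0.02 lay close to those of all genes, 0.00, 0.00, 0.00 and 0.01. With equal totals the split became 8 and 8, 13 and 13, 5 and 27, and 6 and 25, with the share of higher calls among all genes going from 49.9% to 39.8%, 48.3% to 38.7%, 48.4% to 27.0% and 49.9% to 30.1%. Without NTG library A, NTG library C or siINO80#1 library C, 13 list genes were called with siINO80#1 in place of 20. Without NTG library 1, 19 were called with siMCRS1 in DMSO in place of 30, and without siMCRS1 library B, 19 in EPZ-6438 in place of 34. EPZ-6438 changed 0 list genes by limma in NTG cells and 0 in siMCRS1 cells, with 8 and 6 at an unadjusted p under 0.05. Its 0 calls by edgeR in both cell states compare with 3 and 0 by DESeq2. For the interaction the list had 0 calls by limma, edgeR and DESeq2, with 1 gene at an unadjusted p under 0.05.

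**Figure D5:**
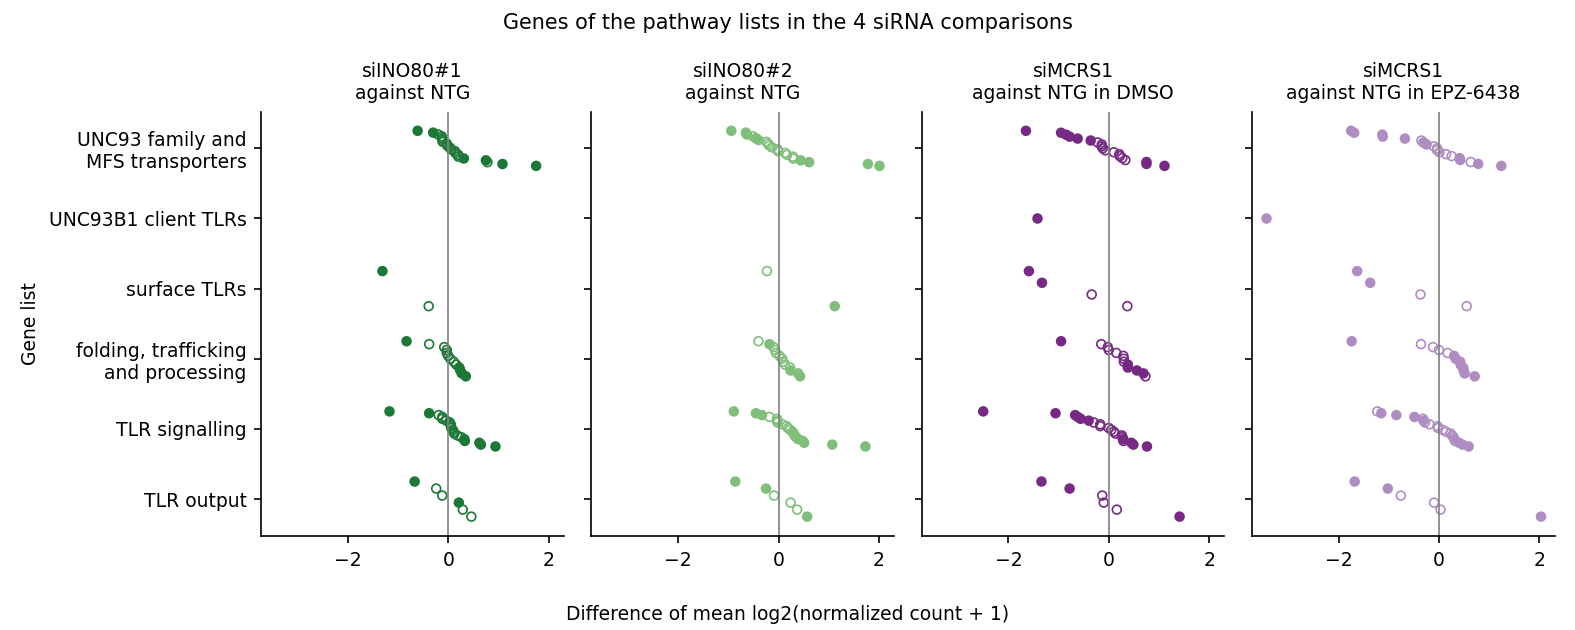
Differences of mean log2(normalized count + 1) for the tested genes of 6 lists (members excluded) in the 4 siRNA comparisons; each point is a gene, filled where the adjusted p is under 0.05, and genes of a list are spread vertically by value. The points lie on both sides of 0 in most lists, and the outlying point of the client receptors is TLR3 at -3.45 with siMCRS1 in EPZ-6438, which passed the filter only through its NTG libraries.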

How the data were processed

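The authors deposited 1 table per experiment of normalized counts, a signal in which each library's gene counts were divided by a common size factor. The submitters' processing notes name kallisto, DESeq2 and GRCh38, without versions or roles, and the annotation, strand setting and treatment of multiply matching reads are not given in the sources used here. Dividing by the smallest step of each library gave whole numbers (tolerance 0.001), called reads here, which may be rounded estimated counts. The 2 genes and all gene lists were chosen with earlier results of these data known.

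Genes averaging 10 normalized counts or more (14034 and 14312) were tested as log2(value + 1) with limma 3.58.1 in R 4.3.3 (all groups of an experiment in 1 fit, eBayes with a trend), at a threshold of 0.05 after Benjamini-Hochberg adjustment. UNC93A and UNC93B1 were in the INO80 fit, which the choice used, and no p of theirs from it is given. edgeR 4.0.16 and DESeq2 1.42.0 on recovered reads, other scalings, pseudocounts and filters, and leaving out each library were alternatives, and the tests were tested on simulated data. Python 3.11.15 with pandas 2.3.3 and numpy 2.4.6 was used for the permutation test.

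The text names the 2 genes, INO80 and MCRS1, rows named UNC93, the 3 genes next in the order of falls, the 5 genes most alike in each experiment and in both, the 5 nearest genes on each side, and genes called in the lists. Columns of the drug experiment were assigned to groups by name. RefSeq gave positions and the promoter window (GRCh38.p14, matched for 1 of the 2 genes), and GENCODE v44 gave transcript lengths. Intervals and floors cover counting error or the spread between libraries only.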

Additional observations from a re-analysis of the deposited data

How the results depend on the processing

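The falls of UNC93A and UNC93B1 with siMCRS1 kept their direction and an adjusted p under 0.05 under every alternative run and without any 1 library, over -4.42 to -3.65 for UNC93A and -3.01 to -2.03 for UNC93B1. The ratio of the 2 genes gave -1.64 to -1.41 without 1 library, with p of 0.02 to 0.03, the number of assignments being smaller. The description with the INO80 siRNAs ranged over -6.13 to -5.15 for UNC93A, the lowest value without library B of siINO80#2, and over -0.38 to -0.15 for UNC93B1. Small differences with EPZ-6438 turned sign without 1 library: without one, UNC93A in NTG cells ranged from -0.13 to 0.50 (turned without DMSO NTG library 3), UNC93A in siMCRS1 cells from -0.33 to 0.40 and UNC93B1 there from -0.40 to 0.14 (both turned without DMSO siMCRS1 library 1 or EPZ-6438 siMCRS1 library B), and the interaction of UNC93A from -0.54 to 0.21 (turned without DMSO NTG library 3 or DMSO siMCRS1 library 1). None passed the threshold. The list genes called without 1 library were 13 to 17 with siINO80#1, 19 to 27 with siMCRS1 in DMSO, 19 to 33 in EPZ-6438, 0 to 0 with EPZ-6438 in NTG cells and 0 to 1 in siMCRS1 cells; a pseudocount of 5 gave 1 call with EPZ-6438 in NTG cells. DESeq2 called 721 genes with EPZ-6438 in NTG cells and 149 in siMCRS1 cells, against 55 and 13 by limma; the cause was not tested. With the letter of the INO80 libraries as a replicate block, 21 and 31 list genes were called with the 2 siRNAs, against 20 and 28 without it, and same-lettered libraries deviated together at r of -0.08 to 0.26 over genes (4 of 9 pairs above 0.1), so the letters were not taken as pairs. In the drug experiment 8 libraries carry column numbers that the labels' letters do not share. Same-numbered libraries deviated together at r of -0.02 to 0.30 (6 of 7 pairs above 0.1), and the main fit did not use these numbers. A replicate block on these numbers, chosen after seeing the data, gave -3.96 for UNC93A and -2.35 for UNC93B1 with siMCRS1 in DMSO, 36 list genes in place of 30 there, and 5 in place of 0 with EPZ-6438 in NTG cells. Of 309 alternative values, 294 kept direction and side of the threshold or stayed within the limit for counts.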
